A study of Mus musculus with 9 samples.

Results

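Peroxisome proliferator-activated receptors (PPARs) are nuclear receptors that bind fatty acids and, paired with a retinoid X receptor, switch on genes for lipid use. The 9 genes described here were listed by role as the 3 PPARs (Ppara, Ppard, Pparg), their partner Rxra, the coactivators Ppargc1a and Ppargc1b, and the target genes Angptl4, Pdk4 and Ucp2. They were chosen by role with earlier results of these data known, among them values of Angptl4 and of other PPAR targets with palmitate in 3D cultures. No threshold was stated for the choice, and the palmitate comparison was treated as the one it drew on. Values of that comparison are therefore given for the members as a description, with no p-value, and neither its intervals nor its calls are read as support. The p-values between 3D and 2D cultures also belong to genes chosen with earlier results in view. All 9 were present among the 24421 genes of the table, and 5 of them had enough reads to enter the test (Angptl4, Ucp2, Ppard, Ppargc1b and Rxra), where 12575 genes were tested.

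RNA-seq libraries were made from 4T1 cells, a mouse mammary carcinoma line, in 3 conditions with 3 libraries each. Cells were grown for 5 days as 3D spheroids without additional palmitate, as 3D spheroids with 75 µM palmitate, or as attached 2D monolayers with 75 µM palmitate. Per the study's methods, 4T1 medium held fetal bovine serum, so fatty acids of serum were available in every culture. No 2D culture without additional palmitate was analysed here, and whether palmitate acts alike in both culture forms could not be tested. Nothing in the labels tells separate cultures from repeat preparations, and p-values therefore measure the spread between these libraries. Total counts per library lay between 6595514 and 31177756, the smallest being replicate 3 of the 3D cultures with palmitate. Levels are given in CPM (counts per 1000000 reads on tested genes, after TMM scaling), and 1 read was worth between 0.0320 and 0.153 CPM.

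As the cells are an epithelial line, their markers were checked first. The 6 mammary epithelial markers summed to between 3098 and 4500 CPM in every library, with Epcam, Cdh1, Krt8, Krt18 and Krt14 expressed and Krt5 without a read in both conditions with palmitate. Of the 5 tested, Epcam, Krt8 and Krt18 were higher in 3D than in 2D with palmitate (34.5% of all tested genes), Epcam at 707 against 263 CPM. Fewer cells of a type and less RNA per cell cannot be told apart in such bulk libraries. Adipocyte markers, of interest because Pparg is the adipocyte receptor, were close to absent. The 6 of them summed to at most 0.613 CPM in any library, and Lep had no read in any condition. The 4 endothelial markers summed to at most 0.579 CPM. Of 6 immune markers, Cd68 alone was tested, at 25.7 ± 1.81 CPM in 2D and 9.40 ± 1.66 in 3D with palmitate (SD, n = 3 each), whereas the pan-leukocyte gene Ptprc had at most 11 reads in a library. Of 6 fibroblast markers 3 were tested, with 1 higher and 2 lower in 3D than in 2D with palmitate (34.5% and 33.9% of all tested genes). Pdgfra was at 98.8 against 30.4 CPM on average, whereas Col1a1 was at 0.845 against 2.18 CPM and Col1a2 at 0.0633 against 1.31 CPM, and Lum had no read. Col1a2 passed the filter through the 2D libraries, so its call is not read.

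PPARs act as heterodimers with RXR on paired AGGTCA elements and become active when fatty acids bind them. PPAR delta is found in most tissues, PPAR alpha is best known from liver and PPAR gamma from fat. The PGC-1 coactivators, encoded by Ppargc1a and Ppargc1b, dock on these receptors and on other factors to raise mitochondrial and oxidative genes. Angptl4, a secreted inhibitor of lipoprotein lipase, and Pdk4, a kinase that shuts pyruvate dehydrogenase, are textbook PPAR targets in muscle and fat. Ucp2 is a carrier of the inner mitochondrial membrane whose gene responds to fatty acids in several cell types.

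To show the DNA next to the start sites of the 3 most abundant members, the 250 bases before the first listed RefSeq start (GRCm38.p6) are printed 5′ to 3′ on the strand of the gene, all 3 on the plus strand. Ppard lies at chr17:28232504-28232753, Rxra at chr2:27676951-27677200 and Ucp2 at chr7:100493108-100493357. Capitals mark AGGTCA elements and the hypoxia-response cores ACGTG or GCGTG, on either strand (CACGT or CACGC where the core reads on the other strand).
Ppard: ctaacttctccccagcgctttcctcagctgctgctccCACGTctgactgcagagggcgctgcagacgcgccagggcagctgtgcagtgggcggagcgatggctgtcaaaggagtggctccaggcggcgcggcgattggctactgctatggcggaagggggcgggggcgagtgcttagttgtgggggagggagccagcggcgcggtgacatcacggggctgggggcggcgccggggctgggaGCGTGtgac
Rxra: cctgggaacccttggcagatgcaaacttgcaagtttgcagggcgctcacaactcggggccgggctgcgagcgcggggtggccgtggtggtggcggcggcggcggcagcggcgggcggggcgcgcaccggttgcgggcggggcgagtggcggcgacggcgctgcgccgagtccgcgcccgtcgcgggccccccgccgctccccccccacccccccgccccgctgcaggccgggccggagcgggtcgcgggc
Ucp2: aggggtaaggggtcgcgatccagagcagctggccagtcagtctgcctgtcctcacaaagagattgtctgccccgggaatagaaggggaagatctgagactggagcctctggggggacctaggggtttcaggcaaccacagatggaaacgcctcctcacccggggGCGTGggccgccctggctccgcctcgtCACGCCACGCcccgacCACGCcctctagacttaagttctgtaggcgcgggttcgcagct

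RefSeq promoters were matched for 7 of the 9 genes, Angptl4 and Ppargc1b being the others. None of the 3 printed windows held AGGTCA on either strand, an element found in 14% of the 32851 windows of equal length. The paired element AGGTCANAGGTCA, known as DR1, was found in 0.0335% of all windows and in none of the 3. GC-rich sequence marked all of them, with 22 CpG pairs for Ppard, 40 for Rxra and 16 for Ucp2 against a median of 6 over all windows. Hypoxia-response cores were found 2 times for Ppard, 4 times for Ucp2 and not for Rxra, and 38.6% of all windows held at least 1. An AGGTCA element was found once in each of the first 2 windows of Pparg and 2 times in the second window of Rxra. These matches describe letters in short windows and say nothing of elements elsewhere.

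Levels were compared between genes only per length, as CPM per kb of the longest annotated transcript. In 3D cultures without palmitate, the mean order was Ppard (52.8), Ucp2 (45.0), Rxra (19.2), Ppargc1b (0.700), Pparg (0.230), Angptl4 (0.148) and Ppargc1a (0.0694), and the ranges over libraries of these neighbours did not overlap. In 3D cultures with palmitate Ucp2 (57.8) and Ppard (55.2) overlapped, as did Ppargc1b (0.979) and Angptl4 (0.919). In 2D cultures Ucp2 (54.8) stood alone at the top, above Ppard (28.9) and Rxra (9.55), and Ppargc1b (2.11) and Angptl4 (1.80) overlapped again. Ppara and Pdk4 were at or under 0.0218 CPM per kb on average in every condition and could not be placed in order.

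**Figure D1:**
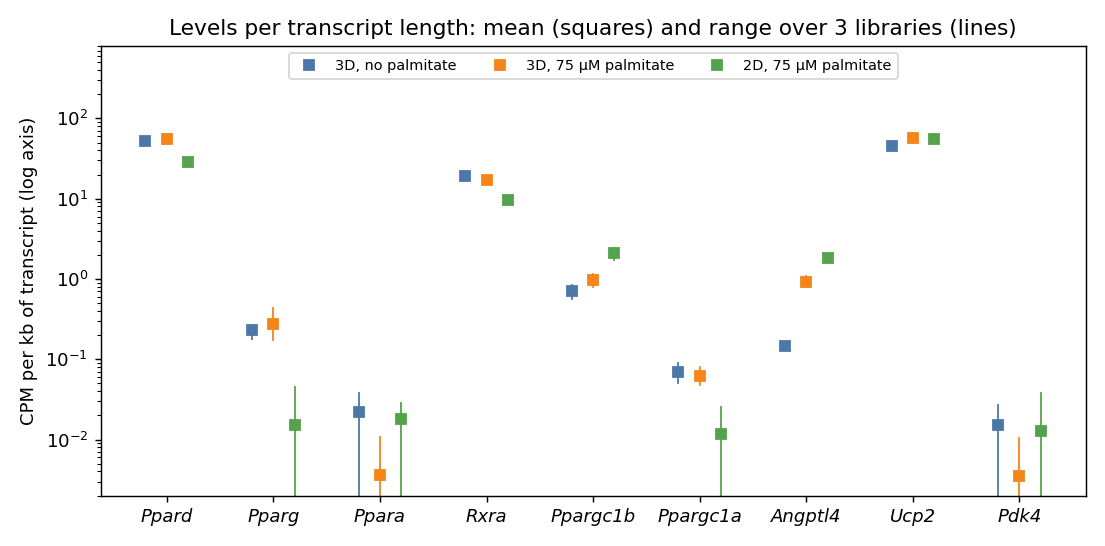
Mean level of each gene in CPM per kb of transcript on a log axis, with lines for the range over the 3 libraries of a condition; lines that reach the bottom include libraries without a read. Ppard, Rxra and Ucp2 lie between 9.55 and 57.8 CPM per kb, far above the other 6 genes.

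Among the receptors, nearly all PPAR transcript came from Ppard. Per kb of transcript, it held between 99.2% and 99.7% of the summed PPAR level in 3D cultures with palmitate and at least 99.7% in every 2D library. Ppard (chromosome 17, 28232700 to 28301474, GRCm38) was at 194, 208 and 189 CPM in 3D cultures without palmitate, at 236, 196 and 185 CPM in 3D cultures with it, and at 102, 109 and 112 CPM in 2D cultures with it. All 6 spheroid libraries were thus above all 3 monolayer libraries, and the 2 kinds of spheroid overlapped. Between 3D and 2D cultures with palmitate, Ppard was higher in 3D 1.92-fold, or 0.94 as a log2 fold change, with a standard error (SE) of 0.0846 (quasi-likelihood test of edgeR, adjusted p = 1.93e-07 after Benjamini-Hochberg adjustment over all tested genes). The log2 fold change with palmitate in 3D was 0.07, with a 95% interval from -0.11 to 0.25. Without replicate 1 of the 3D cultures with palmitate, its highest library, this value was -0.05.

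Pparg, the receptor of fat cell formation, was near the limit of detection. Its gene lies on chromosome 6 from 115360951 to 115490399. Libraries of 3D cultures held 12, 8 and 7 reads without palmitate and 10, 12 and 3 reads with it, whereas the 2D libraries held 0, 3 and 0 reads. The lowest spheroid library was at 0.368 CPM and the highest monolayer library at 0.0961 CPM, so the groups did not overlap. Summed over libraries and scaled to depth, the 25 reads of 3D against the 3 reads of 2D cultures with palmitate gave a ratio of 11.7, with an exact 95% interval of 3.57 to 60.5 that covers counting error only. Pparg did not pass the filter on low counts. In a fit without that filter, 3D over 2D gave a log2 fold change of 3.40 (SE 0.761). With so few reads in 2D, no test is read from it.

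Ppara (chromosome 15, 85734983 to 85802819) had at most 3 reads in any library. The libraries held 2, 2 and 0 reads in 3D without palmitate, 1, 0 and 0 in 3D with palmitate and 0, 3 and 2 in 2D. At this depth no difference was detectable, and the ratio of 3D to 2D cultures with palmitate had an exact 95% interval from 0.00593 to 2.51 in counting error.

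Rxra, the heterodimer partner of PPARs and of several other receptors, followed Ppard. Its gene lies on chromosome 2 from 27676440 to 27762957. Rxra was at 89.9, 93.8 and 99.0 CPM in 3D cultures without palmitate, 90.4, 77.9 and 86.1 CPM in 3D cultures with it, and 51.0, 46.6 and 42.9 CPM in 2D cultures. All spheroid libraries lay above all monolayer libraries. For 3D over 2D with palmitate, the log2 fold change was 0.86 (SE 0.0793, edgeR adjusted p = 2.31e-07), or 1.82-fold, and with palmitate in 3D it was -0.15 (95% interval -0.31 to 0.02). Its sister gene Rxrb had the opposite sign, -0.20 on the log2 scale (edgeR adjusted p = 0.0255), at means of 46.0 and 53.0 CPM. Per kb, Rxra held between 47.3% and 51.4% of the summed RXR level in 3D and between 28.5% and 35.5% in 2D cultures with palmitate, with Rxrb as the rest, since Rxrg had no read.

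The PGC-1 coactivator genes were both expressed at low levels, and Ppargc1b alone passed the filter. Ppargc1b (PGC-1 beta; chromosome 18, 61298136 to 61400431) was at 3.12, 2.07 and 2.50 CPM in 3D cultures without palmitate, at 3.57, 4.25 and 2.91 CPM in 3D cultures with it, and at 6.29, 7.98 and 8.87 CPM in 2D cultures. The 2D libraries were above every 3D library. Compared with 2D, Ppargc1b in 3D with palmitate was lower, at a log2 fold change of -1.10 (SE 0.174, edgeR adjusted p = 5.65e-05), so that its level in 2D was 2.14-fold that in 3D. Palmitate in 3D gave 0.49 on the log2 scale (SE 0.206), and 1 library of each group lay within the range of the other.

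Ppargc1a (PGC-1 alpha; chromosome 5, 51454250 to 51567726) had few reads everywhere. The counts were 7, 9 and 8 in 3D cultures without palmitate, 14, 5 and 2 in 3D cultures with it and 2, 2 and 0 in 2D cultures. Scaled to depth, the lowest 3D library stood at 0.306 CPM and the highest 2D library at 0.165 CPM. The 21 reads of 3D against the 4 reads of 2D cultures with palmitate gave a ratio of 7.37, with an exact 95% interval of 2.49 to 29.5 for counting error only. It did not pass the filter, and without the filter its log2 fold change was 2.69 (SE 0.754), from which no test is read either. The larger relative of the family, Pprc1, held at least 94.1% of the summed level of the 3 genes per kb in every library. Pprc1 itself was lower in 3D, at 130 against 201 CPM and -0.62 on the log2 scale (edgeR adjusted p = 3.29e-06).

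Angptl4 changed most among the target genes. It lies on chromosome 17 from 33773750 to 33781830, and no other annotated exon overlaps it. The libraries held 10, 7 and 10 reads in 3D cultures without palmitate, 80, 47 and 17 in 3D cultures with it, and 76, 170 and 137 in 2D cultures with it. In CPM this gave 0.472, 0.452 and 0.542, then 2.94, 3.57 and 2.60, and then 6.29, 5.45 and 6.10. The 3 conditions did not overlap, from spheroids without palmitate as the lowest to monolayers as the highest. The log2 fold change with palmitate in 3D, part of the values that chose this gene, was 2.64 (SE 0.237), or 6.21-fold. Between 3D and 2D cultures, both with palmitate, Angptl4 was lower in 3D at a log2 fold change of -0.93 (SE 0.152, edgeR adjusted p = 7.5e-05), so that the 2D level was 1.91-fold the 3D level. The smallest library held 17 of these reads.

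Ucp2 (chromosome 7, 100493337 to 100502020) was the most abundant target gene. It was at 173, 191 and 174 CPM in 3D cultures without palmitate, at 259, 234 and 198 CPM in 3D cultures with it and at 216, 207 and 233 CPM in 2D cultures. All libraries with palmitate were above all libraries without it, although the smallest gap, from 191 to 198 CPM, was narrow. The log2 fold change with palmitate in 3D was 0.37 (SE 0.0878), or 1.29-fold. Of the 9 fits that left out 1 library, 8 lost the call of Ucp2 with palmitate, and only that without replicate 3 of the 3D cultures with palmitate retained it. Between 3D and 2D cultures with palmitate the libraries overlapped, at a log2 fold change of 0.08 (95% interval -0.10 to 0.27, edgeR adjusted p = 0.416). Exons of Dnajb13 overlap Ucp2 on the opposite strand, and Dnajb13 itself held between 4 and 16 reads. Per kb, Ucp2 made up at least 99.7% of the summed level of Ucp1, Ucp2 and Ucp3 in every library.

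Pdk4 (chromosome 6, 5483351 to 5496309), in contrast, was scarcely detected. The counts were 2, 1 and 0 in 3D cultures without palmitate, 1, 0 and 0 in 3D cultures with it, and 0, 0 and 3 in 2D cultures. No difference was detectable at this depth, and the ratio of 3D to 2D cultures with palmitate had an exact 95% interval from 0.00891 to 5.82 in counting error. Pdk4 held at most 0.0844% of the summed level of the 4 kinase genes per kb in any library, while Pdk3 held between 63.9% and 73.7% and Pdk1 between 22.1% and 26.9%.

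**Figure D2:**
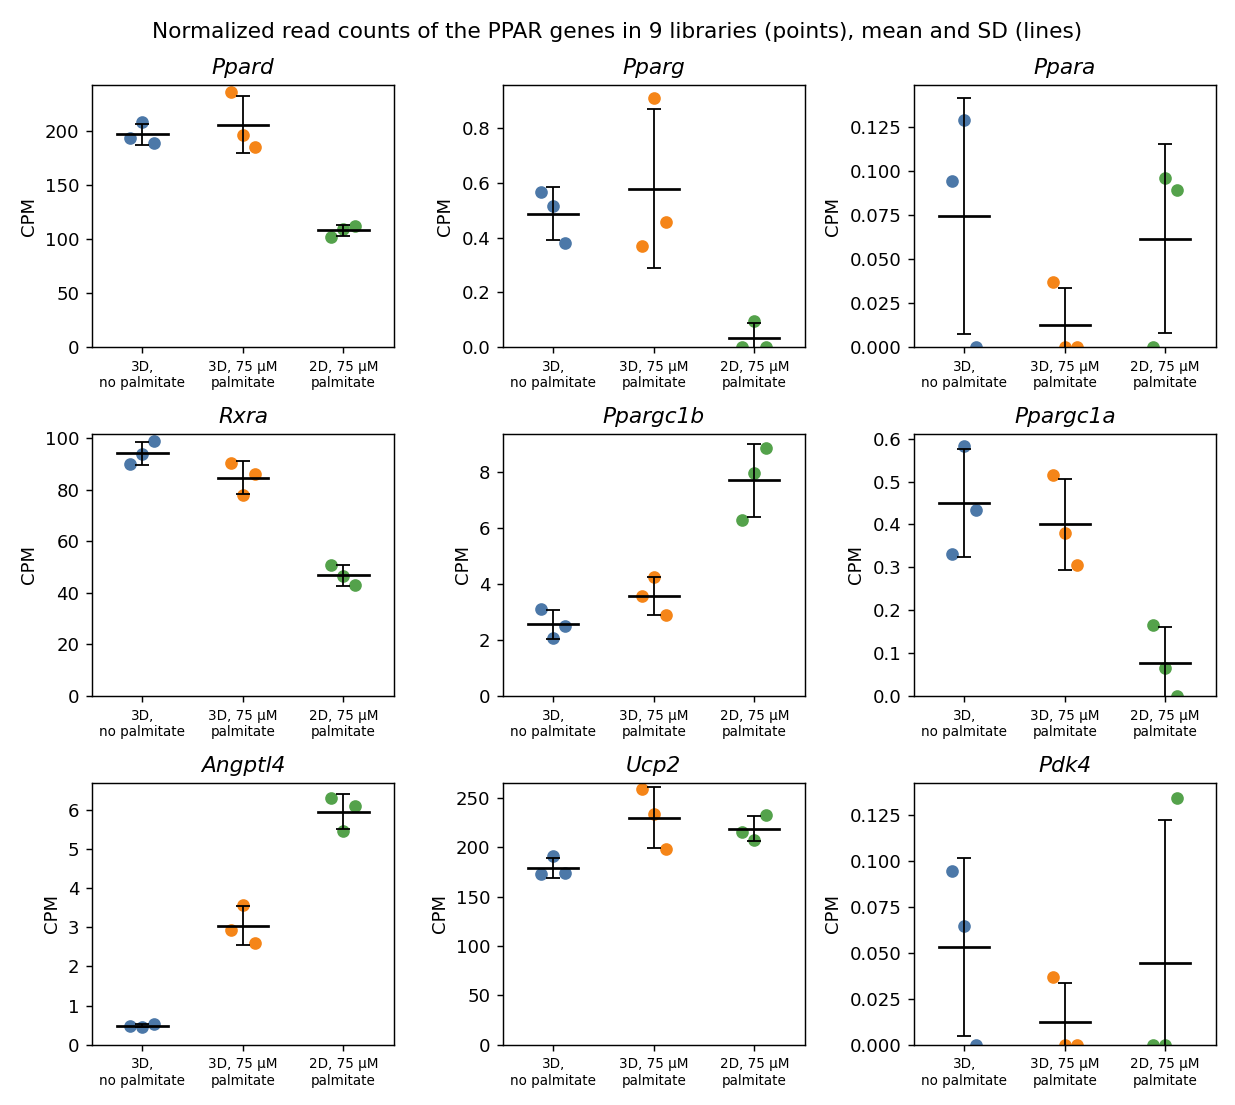
Normalized read counts (CPM, linear axes from 0) of the 9 genes in each of the 9 libraries, with the mean as a bar and the SD as an error bar for each condition (n = 3). Angptl4 steps up from spheroids without palmitate (mean 0.489 CPM) to spheroids with it (3.04 CPM) and monolayers with it (5.95 CPM), whereas Ppard and Rxra are lowest in monolayers.

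Read against all genes, these counts have the following background. Between 3D and 2D cultures with palmitate, 4 of the 5 tested members were called at an adjusted p under 0.05 in edgeR, where 68.3% of all tested genes were called. Of the 4, Ppard and Rxra were higher in 3D (34.5% of all genes) and Angptl4 and Ppargc1b lower (33.9%). The same 4 had groups without overlap, as had 69.4% of all genes. These shares are near the background, so differing between culture forms was common and not particular to these genes. Under palmitate in 3D, 2 of the 5 were called, Angptl4 and Ucp2, against 2.19% of all genes, both of them higher (1.38%) and both without overlap (18.6%). The genes called lower made up 0.811%. Leaving out 1 library moved the 275 genes called with palmitate to between 71 (without replicate 3 of 3D without palmitate) and 1901 (without replicate 3 of 3D with palmitate). Since this comparison was treated as the one that chose the members, nothing is read from that count. With 3 libraries against 3, the exact permutation test of a single gene cannot go below p = 0.1.

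The 3D libraries with palmitate enter both comparisons. To see the culture difference without them, the 3D cultures without palmitate were set against the 2D cultures with it, which then differ in palmitate as well. In this fit 9065 of the 12575 tested genes were called. Ppard and Rxra stayed higher in 3D, at log2 fold changes of 0.87 and 1.01, and Ppargc1b lower at -1.59. Angptl4 was at -3.57, its 2D level being 11.9-fold that of spheroids without palmitate. Ucp2 was at -0.28, whereas its libraries overlapped when both cultures had palmitate, and these values were not tested against each other. This contrast includes the palmitate difference on which the choice was taken to draw, so no p-value is given for the members.

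**Figure D3:**
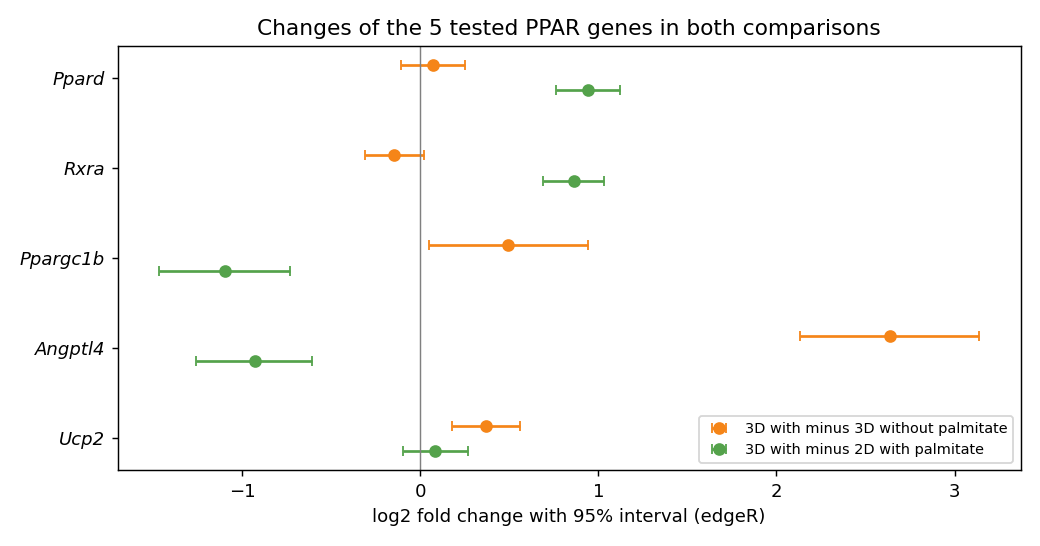
Log2 fold changes of the 5 tested genes (points) with 95% intervals from edgeR (bars), for palmitate in 3D cultures and for 3D against 2D cultures with palmitate. In the first comparison 4 of the 5 lie above 0, Angptl4 farthest at 2.64, and Ppargc1b (0.49) was not called there. In the second Angptl4 and Ppargc1b lie below 0, and Ppard and Rxra above 0, at 0.94 and 0.86.

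Other receptors and coregulators of the pathway were taken from lists made for this work. Their counts between 3D and 2D cultures stand against 34.5% of all tested genes called higher and 33.9% called lower (68.3% in all), and a share near these is not a result about a list. With palmitate in 3D 2.19% of all tested genes were called, so few or no calls in lists this short are not a result about them. Of 10 RXR receptors and partners besides Rxra, 7 were tested, and in 3D against 2D with palmitate 3 were higher and 2 lower. Vdr, the vitamin D receptor, had a log2 fold change of 2.21 (edgeR adjusted p = 2.56e-10), at 32.2 against 6.85 CPM. Rarg, a retinoic acid receptor, was higher by 0.62 and Nr1h3, the oxysterol receptor LXR alpha, lower by -0.84. Only Vdr was called with palmitate in 3D, lower at -0.40 (SE 0.0899). Of 14 coactivators and corepressors, all tested, 8 were higher and 2 lower in 3D than in 2D, and their median was 0.22 on the log2 scale, against 0.01 for all genes in either comparison. The largest was Nrip1, which encodes the corepressor RIP140, at 75.3 against 13.9 CPM and a log2 fold change of 2.40 (edgeR adjusted p = 8.89e-09). Ep300, an acetyltransferase that coactivates many factors, was higher by 0.74. None of the 14 was called with palmitate. Of 9 factors that work with PGC-1 coactivators, 7 were tested, 4 were lower and none higher in 3D than in 2D. Tfam, which maintains mitochondrial DNA, was at -0.37, Nrf1 at -0.31 and the nuclear receptor Esrra at -0.30 on the log2 scale. None of the 7 was called with palmitate.

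Of 47 other listed PPAR targets 28 were tested. In 3D against 2D cultures with palmitate 9 were higher and 12 lower, close to the 34.5% and 33.9% of all genes, and the median was 0.11 on the log2 scale. Cpt1a, the entry enzyme of fatty acid oxidation, was higher in 3D at 352 against 91.4 CPM. Fabp5, a fatty acid carrier, was lower in 3D at 26.2 ± 2.87 CPM against 83.5 ± 4.76 CPM (SD, n = 3 each), a log2 fold change of -1.66 (edgeR adjusted p = 3.02e-10). The hormone gene Fgf21 had 5, 2 and 0 reads in 3D and 38, 79 and 65 reads in 2D cultures with palmitate, and since its few reads in 3D left it to pass the filter through the 2D libraries, no test is read from it. With palmitate in 3D, 9 of the 28 were called, all higher, with a median of 0.13, where 2.19% of all genes were called and 1.38% called higher. This list overlaps the one on which the earlier results were known, so the count is a description. The largest were Plin2, the lipid droplet coat, at 1.03 (SE 0.0630), and the acyl-CoA thioesterase genes Acot1 and Acot2, at 0.98 and 0.84, whose near-identical sequences make the split of reads uncertain. Plin2 was at 79.4, 77.1 and 79.7 CPM in 3D without palmitate, 167, 166 and 150 CPM in 3D with it and 247, 242 and 256 CPM in 2D with it. Its 3 conditions were therefore ordered like those of Angptl4, without overlap.

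**Figure D4:**
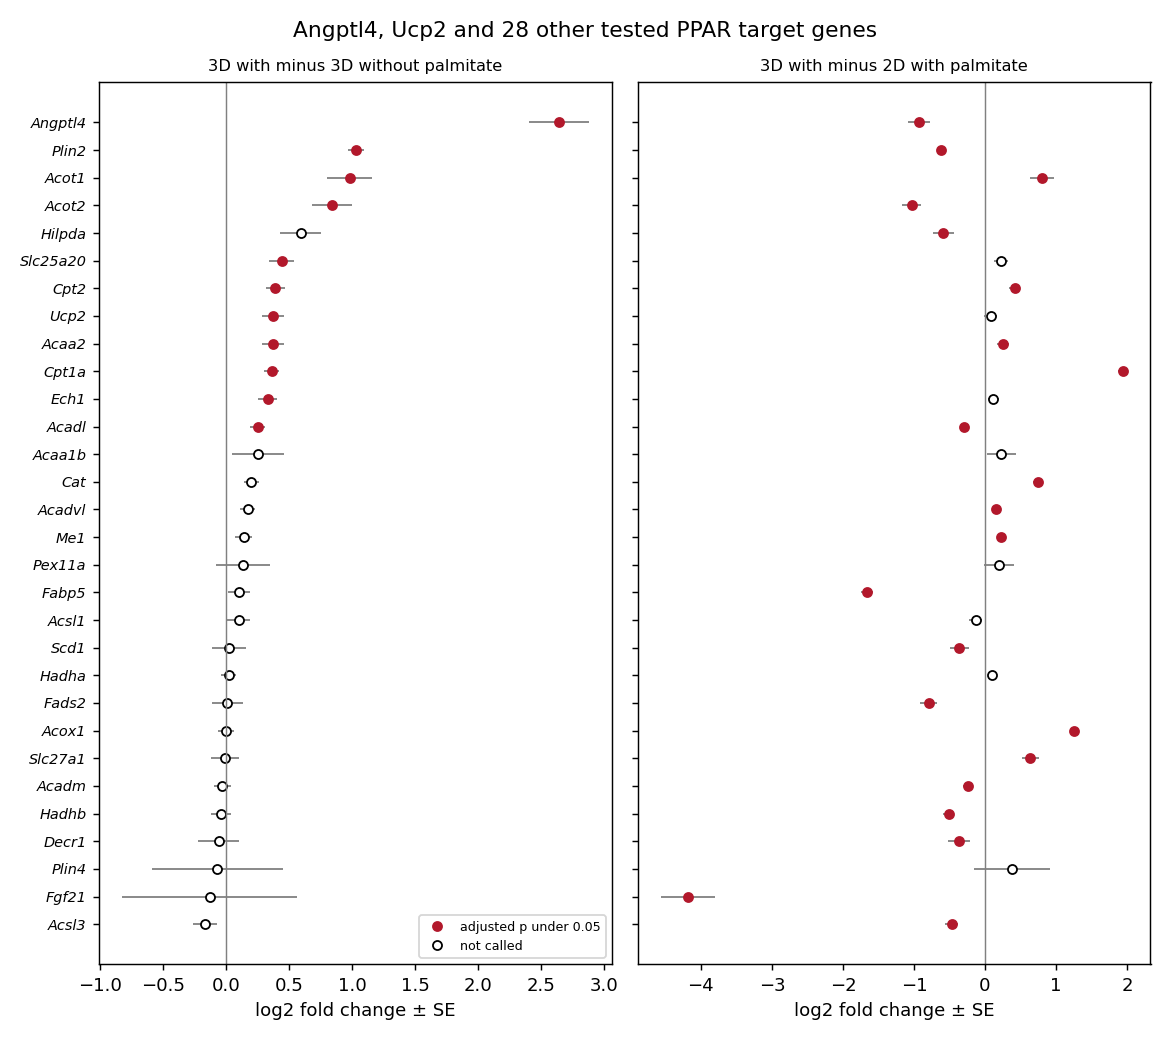
Log2 fold changes with standard errors for Angptl4, Ucp2 and the 28 other tested PPAR targets, with filled points for genes called at an adjusted p under 0.05. With palmitate in 3D (left) the called genes all lie above 0, whereas 3D against 2D cultures (right) has called genes on both sides, such as Fabp5 at -1.66 and Cpt1a at 1.94, and the lowest point, Fgf21, rests on at most 5 reads per 3D library.

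The proteins that ANGPTL4, PDK4 and UCP2 work with or resemble were examined next. Lpl, the lipase that ANGPTL4 inhibits, had at most 2 reads in any library, and Gpihbp1, its anchor on capillaries, had none. The related endothelial lipase gene Lipg was at 250 ± 22.9 CPM in 3D without palmitate, 189 ± 12.5 CPM in 3D with it and 83.7 ± 9.67 CPM in 2D (SD, n = 3 each). Of 13 genes of the Angptl and lipase system that the table holds, 8 were tested, of which 5 were called higher and 2 lower in 3D than in 2D (34.5% and 33.9% of all genes). Angptl2, a secreted relative, was higher by 1.98 and Pcsk6, a proprotein convertase, by 1.99, while Angptl6 was lower by -2.99 (edgeR adjusted p = 1.58e-12, 1.48e-10 and 7.72e-08). Lipg alone was called with palmitate in 3D, lower at -0.41 (SE 0.0892), where 2.19% of all genes were called and 0.811% called lower.

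Of the 10 other genes of the pyruvate dehydrogenase system, the test called 2 higher and 7 lower in 3D than in 2D (34.5% and 33.9% of all genes), and the median of all 10 was -0.46 on the log2 scale. Pdk2 was higher by 1.62, at 5.36 against 1.82 CPM, while the more abundant kinase gene Pdk3 was lower by -0.61 and Dlat, the core subunit of the complex, by -0.80 (edgeR adjusted p = 1.87e-06, 1.35e-05 and 2.45e-08). None of the 10 was called with palmitate in 3D, where 2.19% of all genes were called. Of 4 other uncoupling protein genes 2 were tested, and Slc25a27 was lower in 3D by -0.93 (edgeR adjusted p = 2.98e-06), with none called with palmitate.

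Angptl4 is also a known target of hypoxia and of glucocorticoids, so genes of both responses were measured beside it. The 15 hypoxia genes summed to 2341 to 2532 CPM in 3D without palmitate, 2704 to 2803 CPM in 3D with it and 3322 to 3421 CPM in 2D. This order rested on Ldha, which encodes lactate dehydrogenase and was at 660, 778 and 1533 CPM. Without it, a sum chosen after the data were seen, the other 14 genes summed to 1676 to 1892, 1981 to 2005 and 1794 to 1893 CPM, highest in 3D with palmitate. Of the 15, 7 were higher and 6 lower in 3D than in 2D with palmitate (34.5% and 33.9% of all genes), Car9 among the higher at 62.4 against 32.9 CPM. Of the 15, 13 had a value above 0 with palmitate in 3D, where the median of all tested genes was 0.01 on the log2 scale. Of them 1 was called, Egln3, at 0.29 (SE 0.0571), where 2.19% of all genes were called and 1.38% called higher. The 8 glucocorticoid genes summed to 388 to 408, 412 to 457 and 344 to 354 CPM in the same order of conditions. The low sum in 2D rested on Sgk1, the most abundant of them, with means of 214, 230 and 134 CPM. By their means, Fkbp5, Tsc22d3 and Per1 were highest in 2D, and Klf9, Dusp1 and Cebpd in 3D with palmitate. Of the 7 tested, Dusp1 and Klf9 were called higher with palmitate (1.38% of all genes), at 1.15 and 0.39. The other 5 were not called, with Cebpd at 0.49, Sgk1 at 0.11, Fkbp5 at 0.04, Per1 at -0.01 and Tsc22d3 at -0.38. The part of either response in the values of Angptl4 was not tested.

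Genes whose pattern over the 9 libraries was closest to a target were sought by the root mean square difference of centred log2 CPM. For Angptl4 they were Btg4 (0.429, Pearson r = 0.971), Prickle1 (0.513, r = 0.947) and Itgb7 (0.551, r = 0.932). Btg4 had at most 18 reads in a library. Prickle1 was at 3.96, 9.22 and 25.8 CPM and Itgb7 at 1.60, 3.53 and 10.7 CPM, as means of 3D without palmitate, 3D with it and 2D with it. For Ucp2 they were Rhob (0.0719, r = 0.927), Bloc1s4 (0.0722, r = 0.947) and Asb6 (0.0724, r = 0.931). Rhob was at 95.7, 117 and 108 CPM in the same order. Pdk4 was not tested, and no gene was sought for it. These likenesses describe 9 libraries in 3 groups and share depth and scaling.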

How the data were processed

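Poly(A) RNA of 9 libraries of 4T1 cells (3 conditions, 3 libraries each) was analysed. Groups and replicate numbers came from the sample titles. The authors deposited raw counts per gene. Per the study's methods, 50 bp single-end reads from a stranded kit were cleaned with fastq-mcf, checked with FastQC 0.11.9, aligned to GRCm38 with HISAT2 2.1.0 and counted with HTSeq-count. The annotation release and strand setting of the counting are not given in the sources used here.

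The 24421 genes were filtered with filterByExpr, scaled by TMM and fitted with condition as the only term in edgeR 4.0.16 (R 4.3.3). The quasi-likelihood test with Benjamini-Hochberg adjustment called genes at an adjusted p under 0.05. The standard error is the absolute log2 fold change over the square root of F. Total counts of 6595514 to 31177756 limit genes with few reads, and intervals on reads cover counting error only. Transcript lengths, GC content and gene positions came from GENCODE M21 (GRCm38), matching 23376 genes by symbol and 678 by synonym, and promoters from RefSeq GRCm38.p6.

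The members and lists were chosen with earlier results of these data known. The genes named were the 9 members, Plin2, Cpt1a, at most 3 called genes of each list with the largest absolute log2 fold change, and the 3 genes nearest in pattern to Angptl4 and Ucp2. Rxrb and Pprc1 as relatives, Lpl, Gpihbp1, Lipg in all conditions, Pdk1, Fkbp5, Per1 and marker genes were named outside that rule, after their values were seen. Alternatives were RLE or library size scaling, no filter, at least 10 counts in every library, only the 2 groups compared, a replicate block, DESeq2 1.42.0, removal of GC and length trends by natural splines with 4 degrees of freedom, the share of the ribosomal RNA precursor Rn45s (1.77% to 5.38% of counts) as a covariate, 3D cultures without palmitate in place of those with it, and each library left out. The procedure was also tried on simulated counts, whose outcome is not given here and on which no result rests.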

Additional observations from a re-analysis of the deposited data

How the results depend on the processing

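Between 3D and 2D cultures with palmitate, Ppard, Rxra, Ppargc1b and Angptl4 kept their direction and their call under every alternative that tested them. Sizes changed with GC and length trends removed. Rxra then fell from 0.86 to 0.54 and Ppard from 0.94 to 0.75, while Ppargc1b went from -1.10 to -1.32 and Angptl4 from -0.93 to -1.06. Angptl4 was not tested with at least 10 counts in every library. Calls of members with 3D cultures without palmitate in place of those with it are not read. Of the members, 4 were called, and between 4 and 7 when single libraries were dropped. In those fits 7977 to 8866 of all tested genes were called. The 7 were reached without 3D palmitate replicate 3, where 8866 genes were called. There Pparg and Ppargc1a passed the filter through 3D libraries, so in every fit their calls are not read. Ucp2 was called higher in that fit, at 0.18 (edgeR adjusted p = 0.0273). Ucp2, at 0.08, turned to -0.14 with GC and length trends removed, where it was called lower (edgeR adjusted p = 0.0462). That removal moved the median of all genes to -0.13 and the share of called genes that were higher from 50.4% to 37.8%. Ucp2 also turned to -0.28 with 3D cultures without palmitate in place of those with it. Without replicate 1 of the 3D cultures with palmitate it was at -0.01.

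With palmitate in 3D, Angptl4 ranged from 2.52 to 2.71 with 1 library left out and Ppard turned to -0.05 without replicate 1 of the 3D cultures with palmitate. The 2 members called became 1 (Angptl4) with library size scaling, only the 2 groups compared or Rn45s as a covariate, 0 with at least 10 counts in every library, where Angptl4 was not tested, and 1 to 2 with 1 library left out. All called genes, 275, became 617 without the filter, 77 with only the 2 groups compared, 908 with GC and length trends removed, 44 with Rn45s as a covariate, and 71 (without 3D replicate 3, no palmitate) to 1901 (without 3D palmitate replicate 3) when single libraries were dropped. Of called genes 62.9% were higher (173 and 102), and 46.7% with library size scaling (106 and 121) and 52.7% without the filter (325 and 292). The cause of these shifts was not tested.

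Replicate numbers recur across conditions. Libraries of the same number correlated in their deviations from the group means by -0.24 to 0.14 over 9 pairs. Those of other numbers correlated by -0.13 to 0.27 over 18 pairs. No pairing by number was seen in these values, which cannot settle whether cultures were paired, and the labels do not say. With the replicate block 111 genes and 1 member (Angptl4) were called with palmitate, and the 4 members of the other comparison were called.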
